A study of Mus musculus with 8 samples.

Results

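The 10 genes described here are the G1 cyclins Ccnd1, Ccnd2, Ccnd3, Ccne1 and Ccne2, the kinase Cdk4, the CDK inhibitors Cdkn1a, Cdkn1b and Cdkn1c, and the transcription factor gene Mycn. They were chosen by gene name, 10 of the 27729 gene names on the array, and all 17 of their non-control probes were kept. Ccne2 was picked because its signal was low in the GFP-high arrays, so its difference between the groups is a description and carries no test. The choice was made with earlier results of these arrays known. The data are 8 one-colour Agilent arrays of heart cells from mouse embryos at E10.5 that carried a minKGFP BAC transgene, in which GFP follows the regulatory region of minK (Kcne1), a potassium channel subunit gene. Of the samples 4 were GFP-high, which the labels call cardiac conduction system cells. They were set against 4 GFP-low samples, called chamber myocardium, from the same transgenic line at the same stage. Both came from hearts dissociated with pancreatin and collagenase and were separated by FACS on fluorescence alone, so each is a range of GFP brightness and may hold several cell types. The labels call the 4 samples of a group biological replicates. The strain, the sex and the number of hearts per sample are not given in the sources used here.

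A cell leaves G1 when D-type cyclins with Cdk4 or Cdk6, and then E-type cyclins with Cdk2, phosphorylate the retinoblastoma proteins and free the E2F factors that switch on S phase genes. The products of Cdkn1a (p21), Cdkn1b (p27) and Cdkn1c (p57) bind and restrain these kinases, and Mycn drives growth and proliferation of the embryonic myocardium. In the mouse heart the chambers proliferate fast while the atrioventricular canal, which expresses Tbx2 and Tbx3, stays slowly cycling, and Tbx2 is known there as a repressor of Mycn. The comparison of the GFP-high with the GFP-low arrays therefore asked whether slow cycling is visible in the transcripts that govern the G1 to S step.

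A probe on this array is a 60-base oligonucleotide, and every level below is the brightness of 1 such sequence, so 3 of them are shown. The first carries the Ccne2 difference, the second and the third are probes whose difference had the opposite sign to that of the brightest probe of the same gene. The name of each gene is followed by its probe and its position in mouse build mm9, as the files give it, and the letters are those in the deposited files. No letters are capitalised, since no motif is marked.
Ccne2 A_52_P58560, chr4:11130171-11130230: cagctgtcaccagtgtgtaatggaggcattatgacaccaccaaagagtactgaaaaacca
Cdkn1b A_51_P169173, chr6:134871103-134871161: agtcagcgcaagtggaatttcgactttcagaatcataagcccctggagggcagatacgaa
Mycn A_51_P497332, chr12:12944312-12944371: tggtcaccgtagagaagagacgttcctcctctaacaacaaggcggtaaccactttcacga

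The share of non-control spots well above background, as the scanner software flags them, ran from 36.3% on GFP-high replicate 3 to 50.7% on GFP-low replicate 2. Levels are log2 of the processed signal minus the array's 75th percentile, so 0 is that percentile, and a difference is GFP-high minus GFP-low on this log2 scale. Kcne1, the reporter's gene, read 2.03, 1.74, 2.06 and 0.83 in GFP-high replicates 1 to 4, against 0.68, 0.25, 0.70 and -0.14 in GFP-low. Every GFP-high array lay above every GFP-low array, although the gene did not pass the test over all genes (limma adjusted p = 0.202). Of the cardiomyocyte markers all 7 of 7 were measured, and their summed level, on a linear scale in multiples of the 75th percentile, was 1510 to 2450 in GFP-high and 1120 to 1920 in GFP-low. The atrioventricular canal and sinus node markers, of which 8 of 9 were measured and Shox2 was well above background on no array, summed to 15.3 to 17.9 in GFP-high and 8.3 to 13.1 in GFP-low. By mean level this sum was led in GFP-high by Tbx2 (2.71), Kcne1 (1.67) and Rspo3 (1.17). In GFP-low it was led by Tbx2 (2.08) and Hcn4 (1.26), ahead of Kcne1 (0.37). Hcn4 (-0.65) and Isl1 (-0.38) were the 2 of the 8 with a negative difference. Kcne1 is the reporter's own gene, so this sum is not independent of the sort on GFP. The 5 chamber markers summed to 298 to 456 in GFP-high and 494 to 549 in GFP-low. The leukocyte list summed to 10.8 to 15.2 in GFP-high and 3.53 to 5.78 in GFP-low, nearly all of it Lyz2, while Ptprc and Csf1r were well above background on no array. Summed levels of the endothelial, cushion, epicardial, erythroid and neural lists overlapped between the groups. The erythroid sum differed widely between arrays of the same group, from 20.1 to 151 in GFP-high and from 10.6 to 135 in GFP-low. The part of these other cells in the results below was not tested.

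Of the 9 genes that were tested, which leaves out Ccne2, none passed the test of GFP-high against GFP-low. The cyclins D1, D2, D3 and E1, Cdk4, the 3 CDK inhibitors and Mycn were all measured in both groups, and their differences lay between -0.51 and 0.87. The 2 with the smallest p were the inhibitors Cdkn1a, with a positive difference, and Cdkn1c, with a negative one. All 10 genes passed the filter, which requires a brightest probe flagged well above background in 4 or more of 8 arrays. The threshold was a Benjamini-Hochberg adjusted p under 0.05 from limma over all 12874 genes that passed, and 0.14% of these genes passed it, 9 higher and 9 lower in GFP-high, or 0.0699% each way. That split moved to 14 higher and 6 lower with another background correction (normexp), to 12 and 3 with normexp and quantile normalisation, and to 32 and 10 with a common floor under dim signals. Of the 9 genes, 0 passed, and their limma adjusted p ran from 0.265 to 0.849. With no adjustment, limma put 2 of the 9 under 0.05, Cdkn1a with a positive and Cdkn1c with a negative difference. The same held for 14.3% of all tested genes, 7.94% positive and 6.38% negative. Cdkn1c was no longer under 0.05 when any 1 array was left out, with the slide or the replicate number as a block, within either slide alone, with no filter on dim probes, over the mean of probes or with each probe as its own row. Its unadjusted limma p was smaller under normexp (0.00984), quantile normalisation (0.00722), both (0.00266) and the common floor (0.00192), and none of these passed after adjustment. Cdkn1a was no longer under 0.05 within either slide alone or after a correction for probe GC content. Of the 10, 6 had a positive and 4 a negative difference, with a median of 0.14, against a median of 0.16 and 62.1% positive over all tested genes. In these bulk samples fewer cells of a type and less RNA per cell cannot be told apart.

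**Figure D1:**
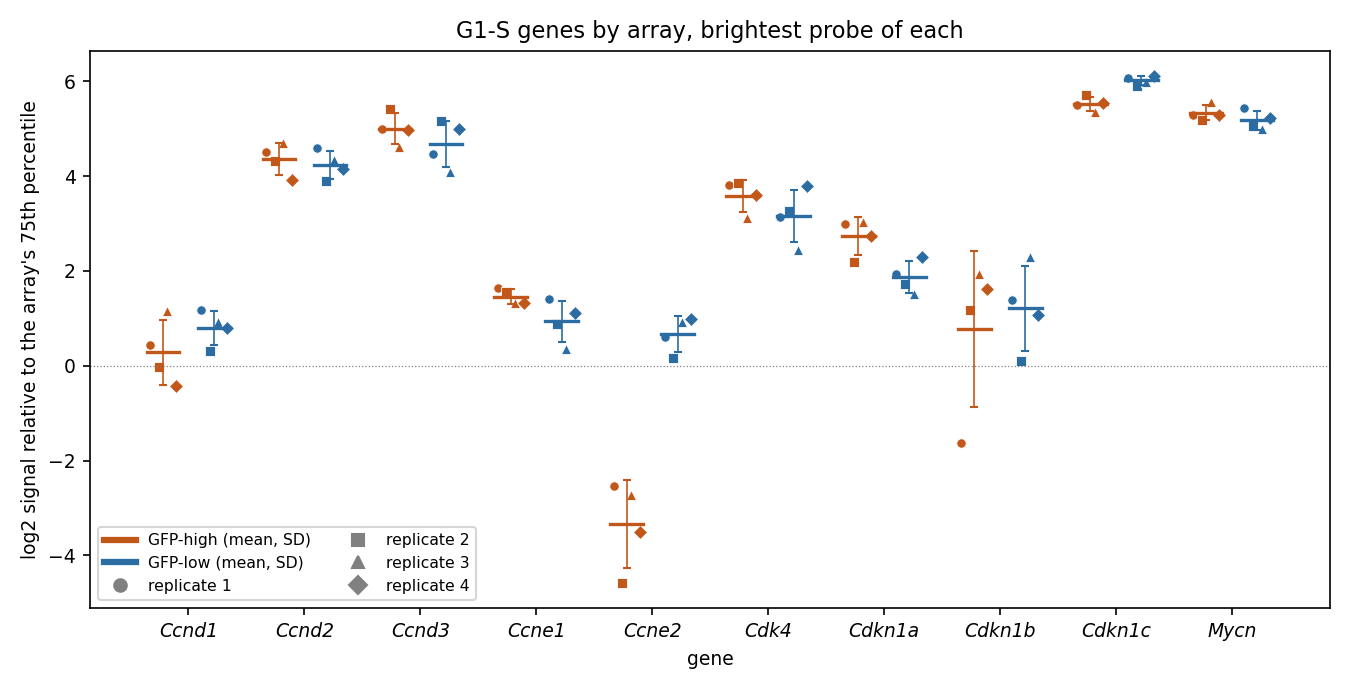
Level of the brightest probe of each of the 10 genes, as log2 signal relative to the array's 75th percentile, in GFP-high (orange) and GFP-low (blue); symbols are the 4 replicates, bars the mean and SD. The arrays of the groups are apart for Ccne2 and Cdkn1c, both lower in GFP-high, and overlap for the other 8 genes; levels of different genes are not comparable, since each comes from its own probe.

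Ccne2 encodes cyclin E2, a partner of Cdk2 late in G1 and itself an E2F target. Its brightest probe, the Ccne2 sequence shown above, read -2.53, -4.57, -2.73 and -3.50 in GFP-high, against 0.60, 0.16, 0.92 and 0.99 in GFP-low. All 4 GFP-low arrays were well above background, but of the GFP-high arrays only replicate 1 was, and its value stood near that array's lowest signal well above background, -3.14. The means were -3.33 ± 0.93 in GFP-high and 0.67 ± 0.38 in GFP-low (SD, n = 4 each), a difference of -4.00 that rests on 3 GFP-high values not well above background, so no fold is given. The difference was -3.93 within slide 1, which held replicates 1 and 2 of both groups, and -4.07 within slide 2, which held replicates 3 and 4.

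The size of the Ccne2 difference depended on how signals near background were treated. It was -1.79 after normexp, -1.91 after normexp and quantile normalisation and -2.36 with a common floor under all arrays, always lower in GFP-high. The second probe, A_52_P58558 (chr4:11130287-11130346), was dimmer and read -5.35, -5.29, -3.92 and -4.63 in GFP-high, against -4.35, -1.30, -2.30 and -2.00 in GFP-low. It was well above background on 0 GFP-high arrays and 3 GFP-low arrays. GFP-low replicate 1, the exception, lay among the GFP-high values, so the groups overlapped on this probe. Set against each GFP-high array's lowest signal well above background, this probe was at least 1.07-fold lower in GFP-high, and its measured difference was -2.31. Ccne2 was the 1 gene of the 10 counted past the threshold, against 0.0699% of all tested genes in that direction, and nothing is read from this count because its low signal was the ground for its choice. The count became 0 when any array other than GFP-high replicate 2 was left out.

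**Figure D2:**
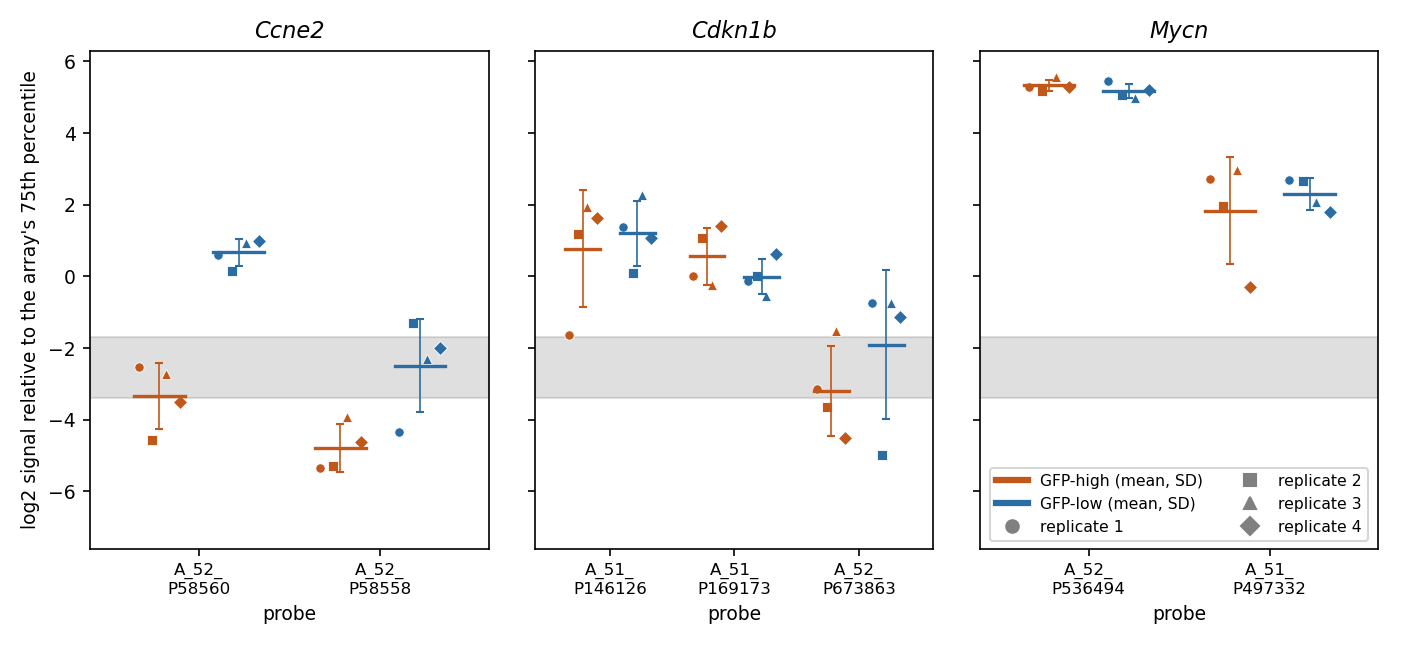
Every probe of Ccne2, Cdkn1b and Mycn in each array, as log2 signal relative to the array's 75th percentile, with GFP-high (orange) left of GFP-low (blue) and bars for the mean and SD; the grey band spans the lowest signals well above background of the 8 arrays. Both Ccne2 probes sat in or below the band in GFP-high, and the probes of Cdkn1b and of Mycn differed among themselves in sign.

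Ccne1, which encodes the other E-type cyclin, showed no such gap. The files place both of its probes at chr7:38882937-38882960, a span shorter than a probe, so their exact positions are uncertain. The brightest probe read 1.64, 1.55, 1.33 and 1.32 in GFP-high, against 1.40, 0.88, 0.35 and 1.10 in GFP-low. GFP-low replicate 1 reached the GFP-high range and the other 3 GFP-low arrays lay below it. The means were 1.46 ± 0.16 in GFP-high and 0.94 ± 0.44 in GFP-low (SD, n = 4 each), a difference of 0.52 ± 0.28 (SE) with a 95% interval of -0.11 to 1.16, which did not pass the test (limma adjusted p = 0.410). The difference was 0.45 within slide 1 and 0.60 within slide 2, and the dimmer probe, A_52_P796682, differed by 0.45 in the same direction. A GFP-high level of Ccne1 lower by more than 0.11 on the log2 scale lay outside the interval of the brightest probe. That limit belongs to the main scaling alone, since under normexp the difference was 0.33 ± 0.24 (SE). The 95% interval of the dimmer probe, tested as its own row, ran from -0.44 to 1.34.

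Among the D-type cyclins, which answer to growth signals early in G1, none passed the test. Ccnd1 (chr7:152116173-152116232) read 0.43, -0.03, 1.16 and -0.43 in GFP-high, against 1.17, 0.30, 0.92 and 0.79 in GFP-low. GFP-high replicates 2 and 4 were the lowest 2 of the 8 arrays, but replicate 3 was nearly as high as the highest GFP-low array. The difference was -0.51 ± 0.38 (SE), with a 95% interval of -1.38 to 0.35 (limma adjusted p = 0.544), and it was -0.54 within slide 1 and -0.49 within slide 2.

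Ccnd2 (chr6:127079694-127079753) read 4.52, 4.32, 4.69 and 3.91 in GFP-high, against 4.58, 3.89, 4.33 and 4.15 in GFP-low. The arrays were interleaved, and the difference of 0.12 ± 0.27 (SE, 95% interval -0.50 to 0.74, limma adjusted p = 0.849) turned to -0.081 under normexp, -0.011 under quantile normalisation and -0.061 under both. Its other probes, A_52_P53906 and A_51_P433228, differed by 0.40 and 0.10, and the brightest one by 0.18 within slide 1 and 0.061 within slide 2. Ccnd3 (chr17:47736267-47736326) read 4.99, 5.42, 4.62 and 4.96 in GFP-high, against 4.46, 5.17, 4.09 and 4.99 in GFP-low. Its groups overlapped too, with a difference of 0.32 ± 0.32 (SE), a 95% interval of -0.40 to 1.04 and a limma adjusted p of 0.644. It was 0.39 within slide 1 and 0.25 within slide 2.

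Cdk4 encodes the kinase that D-type cyclins activate. Its probe (chr10:126501967-126502026) read 3.80, 3.84, 3.11 and 3.60 in GFP-high, against 3.13, 3.26, 2.45 and 3.78 in GFP-low. GFP-low replicate 4 was as high as the GFP-high arrays and GFP-low replicate 3 was the lowest of the 8. The difference of 0.43 ± 0.33 (SE, 95% interval -0.33 to 1.19) did not pass the test (limma adjusted p = 0.559), and it was 0.63 within slide 1 and 0.24 within slide 2.

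The 3 CDK inhibitors of the Cip/Kip family did not share a direction. Cdkn1a, a p53 target whose product p21 blocks Cdk2 complexes, read 2.99, 2.18, 3.04 and 2.73 in GFP-high, against 1.94, 1.72, 1.52 and 2.30 in GFP-low (chr17:29237377-29237436). The groups met at 1 pair of arrays, GFP-high replicate 2 and GFP-low replicate 4. The means were 2.73 ± 0.39 in GFP-high and 1.87 ± 0.34 in GFP-low (SD, n = 4 each). The difference was 0.87 ± 0.29 (SE), 1.82-fold, with a 95% interval of 0.20 to 1.53, and it was 0.76 within slide 1 and 0.98 within slide 2. It did not pass over all genes (limma adjusted p = 0.265). It had the smallest p of the 9 genes, yet 22% of tested genes had a larger absolute difference. The difference was smaller, 0.53, after the median of genes with probes of like GC content was removed, an alternative chosen after seeing the data.

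Cdkn1c, which encodes p57 and is imprinted, had the tightest replicates of the 3. Its probe (chr7:150644753-150644812) read 5.51, 5.70, 5.34 and 5.54 in GFP-high, against 6.07, 5.90, 5.99 and 6.10 in GFP-low. Every GFP-high array was below every GFP-low array. The means were 5.52 ± 0.15 in GFP-high and 6.02 ± 0.09 in GFP-low (SD, n = 4 each), a difference of -0.49 ± 0.21 (SE, 95% interval -0.97 to -0.02), or 1.41-fold lower in GFP-high, and -0.38 within slide 1 and -0.61 within slide 2. This did not pass over all genes (limma adjusted p = 0.337), and over the alternatives the limma adjusted p ran from 0.0966 to 0.999. The difference was -0.67 under normexp, -0.70 under quantile normalisation and -0.72 under both. Of the 9 genes other than Ccne2, 1, Cdkn1c, had groups of arrays that did not overlap. Over all tested genes 3.08% were apart in that direction, 5.86% in the other and 8.95% in either.

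Cdkn1b, which encodes p27, had 3 probes that did not give 1 answer. The brightest (A_51_P146126, chr6:134875215-134875274) read -1.64, 1.18, 1.93 and 1.62 in GFP-high, against 1.38, 0.09, 2.29 and 1.08 in GFP-low. GFP-high replicate 1 stood far below the other 7 arrays: the difference was -0.43 ± 0.81 (SE, 95% interval -2.28 to 1.41, limma adjusted p = 0.815) with it and 0.37 without it. Within slide 1, which held that array, the difference was -0.96, and within slide 2 it was 0.10. The probe printed above, A_51_P169173, was spotted 10 times on each array and read 0.00, 1.06, -0.25 and 1.41 in GFP-high, against -0.12, 0.01, -0.56 and 0.63 in GFP-low. GFP-high replicates 2 and 4 were the highest of the 8 arrays and the others overlapped, and the difference was 0.57, with a limma adjusted p of 0.582 when each probe was tested as its own row. The third probe, A_52_P673863 (chr6:134873606-134873665), was well above background on 1 GFP-high array and 3 GFP-low arrays and differed by -1.31, with the same limma adjusted p of 0.582.

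Mycn was well above background on all 8 arrays with both of its probes and showed no clear direction. The brightest probe (A_52_P536494, chr12:12943193-12943252) read 5.28, 5.19, 5.57 and 5.30 in GFP-high, against 5.45, 5.06, 4.98 and 5.22 in GFP-low. The highest array was GFP-high replicate 3 and the next GFP-low replicate 1, so the groups were mixed. The difference was 0.16 ± 0.22 (SE), with a 95% interval of -0.35 to 0.67, equal to a range of 0.783-fold to 1.59-fold (limma adjusted p = 0.754). It turned to -0.023 under normexp, to -0.019 under normexp with quantile normalisation, to -0.15 over the mean of both probes, and to -0.017 within slide 1, against 0.33 within slide 2. The Mycn probe printed above, A_51_P497332, read 2.72, 1.96, 2.97 and -0.30 in GFP-high, against 2.68, 2.66, 2.07 and 1.78 in GFP-low. GFP-high replicate 4 was the lowest of the 8 arrays on that probe and the other 3 GFP-high arrays lay within or above the GFP-low range; the difference was -0.46. A GFP-high level of Mycn below 0.783-fold of the GFP-low level lay outside the interval of the brightest probe. That limit belongs to the main scaling alone, since under normexp the difference was -0.023 ± 0.25 (SE). The 95% interval of A_51_P497332, tested as its own row, was wider, from -2.02 to 1.10 on the log2 scale.

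**Figure D3:**
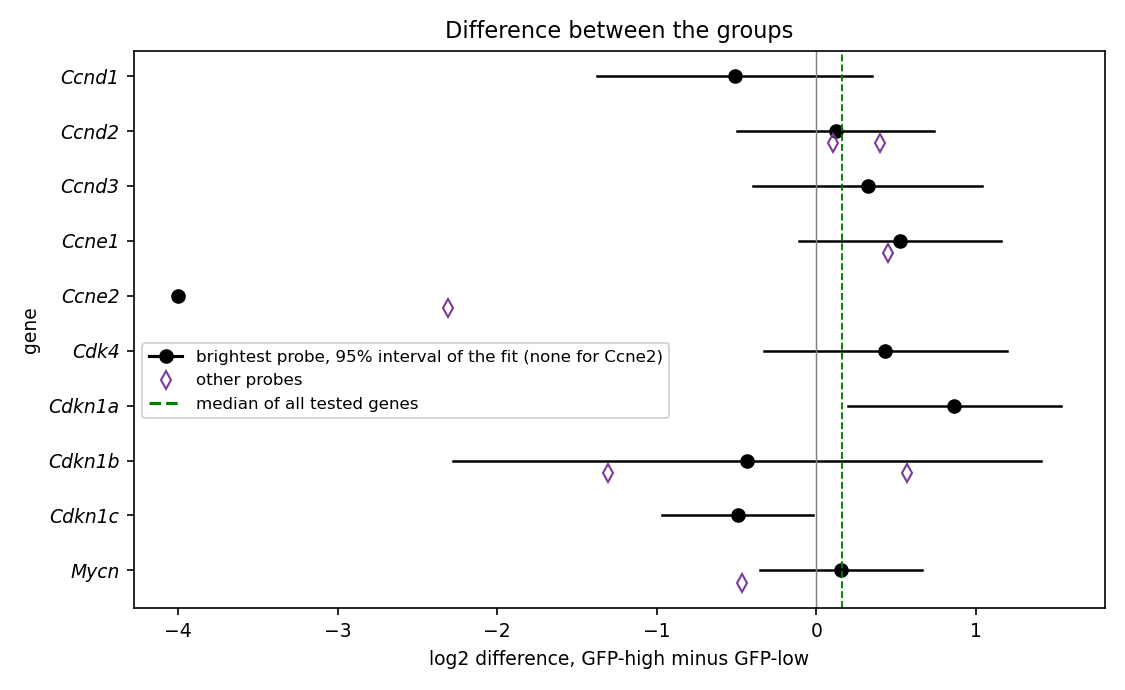
Difference between the groups (log2, GFP-high minus GFP-low) for the brightest probe of each gene, with the fit's 95% interval, and for the other probes (diamonds); Ccne2 has no interval because it was picked for its low GFP-high signal. The intervals of Cdkn1a and Cdkn1c leave out 0 before adjustment over all genes, the signs of Ccnd2 and Mycn flip under other scalings, and the green line is the median of all tested genes at 0.16.

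Ccnd1, Cdkn1a and the Cdkn1b probe A_51_P169173 were spotted up to 10 times on each array, and the spread between spots can be set beside that between samples. The SD between spots of an array was 0.032 to 0.083 for Ccnd1, 0.026 to 0.11 for Cdkn1a and 0.049 to 0.576 for Cdkn1b. The SD between arrays of a group was 0.68 in GFP-high and 0.37 in GFP-low for Ccnd1, and 0.39 in GFP-high and 0.34 in GFP-low for Cdkn1a. For this Cdkn1b probe it was 0.80 in GFP-high and 0.49 in GFP-low, and the GFP-low value lay below the highest SD between its spots. For Ccnd1 and Cdkn1a the spread between arrays was therefore larger than anything the spots of 1 array showed. The spots share 1 RNA sample, amplified from 5 ng, and their spread holds none of the spread of cell sorting or amplification.

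The GC content of a probe moved with the difference between the groups across the whole array. The median difference was -0.07 over the 2192 tested genes with a probe of at most 35% GC and 0.36 over the 2319 genes above 50% and up to 55%. The printed Ccne2 probe has 45% GC, where genes above 40% and up to 45% had a median of 0.15, and its difference was -4.02 after the medians were removed, against -4.00 before. The brightest Mycn probe has 35% GC and the other one 50%. Tested as their own rows, they differed by 0.16 ± 0.24 and -0.46 ± 0.68 (SE), so neither sign is clear. On the second probe GFP-high replicate 4 read -0.30, while the other GFP-high arrays lay within or above the GFP-low range. The cause of the disagreement between the probes was not tested. After the medians were removed the brightest Mycn probe differed by 0.40, and it did not pass (limma adjusted p = 0.446). Cdkn1a moved to 0.53 in the same step, and the other 7 genes kept their sign.

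The rest of the pathway gave no call either. Of 94 genes in 7 lists around the G1 to S step, 90 were tested and 0 passed limma's adjusted threshold, against 0.14% of all tested genes. At an unadjusted limma p under 0.05, 17 did, 6 with a positive and 11 with a negative difference. This is 18.9%, against 14.3% of all tested genes. Of these, 4 of the 6 positive and 3 of the 11 negative came from the list of 11 heart regulators. The 18.9% is therefore not a share of cell cycle genes alone, and no excess of these is read from it. In the other lists the positive and negative counts were 1 and 2 of 19 direct partners and 0 and 2 of 14 turnover genes. They were 0 and 0 of 9 Myc network genes and 0 and 2 of 19 replication genes. For proliferation markers they were 0 and 1 of 10, and for the p53 list 1 and 1 of 8. The median difference of the 90 genes was 0.10, and 53.3% were positive, against 62.1% of all tested genes.

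The direct partners of the cyclins, which are CDKs, retinoblastoma family members, E2Fs and INK4 inhibitors, had 8 positive and 11 negative differences with a median of -0.22. Rbl2, which encodes the pocket protein p130 of quiescent cells, read -4.24, -2.43, -0.77 and -4.64 in GFP-high, against -0.53, 0.24, 0.24 and 0.51 in GFP-low. All GFP-high arrays were lower, but only 2 of them were well above background, and the difference of -3.13 ± 0.79 (SE, limma adjusted p = 0.186) became -1.17 under normexp. Tfdp2, a dimer partner of E2Fs, differed by -1.49 ± 0.42 (SE, limma adjusted p = 0.222). It was well above background on 3 GFP-high arrays, and its difference was -0.725 under normexp. Cdk2, the kinase of cyclin E, read 1.58, 2.55, 1.65 and 2.49 in GFP-high, against 1.51, 0.52, 0.97 and 1.09 in GFP-low. Its arrays did not overlap, and the difference of 1.04 ± 0.34 (SE) did not pass (limma adjusted p = 0.257). Among the genes for turnover and assembly of G1-S proteins, 7 differences were positive and 7 negative, around a median of 0.02. The smallest p there belonged to Cdk7 (-2.02), Ccnh (-0.91), which together form the CDK-activating kinase, and Fbxw7 (-1.76), which marks cyclin E for degradation, with limma adjusted p of 0.280, 0.304 and 0.352. Under normexp Cdk7 differed by -0.85 and Fbxw7 by -0.76, while Ccnh differed by -1.04. Cdk7 was well above background on 3 GFP-high arrays.

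Genes around DNA replication did not move as a block. The list of replication licensing genes and E2F targets, to which Ccne2 would belong by function, had 7 positive and 12 negative differences with a median of -0.06. Dbf4 (-2.05) and Mcm4 (-0.95), both needed to fire replication origins, had limma adjusted p of 0.294 and 0.381, and Dbf4 differed by -0.18 under normexp.

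Proliferation markers had members on both sides. Mki67, which encodes the Ki-67 antigen, read -1.95, -1.42, -3.96 and -1.86 in GFP-high, against -1.29, 1.70, -1.13 and -0.22 in GFP-low. Every GFP-high array lay below every GFP-low array, although GFP-high replicate 2 was close to GFP-low replicate 1. Of the GFP-high arrays 3 were well above background for Mki67. The difference of -2.06 ± 0.77 (SE) did not pass (limma adjusted p = 0.299) and became -1.002 under normexp and -1.39 with a common floor. The mitotic genes Aurka (0.53) and Birc5 (0.48) pointed the other way without passing, with limma adjusted p of 0.350 and 0.362. Both were well above background on every array, and every GFP-high array lay above every GFP-low array. Over the 10 proliferation markers 7 differences were positive and 3 negative, with a median of 0.25.

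Around Mycn, 8 of 9 tested genes of the Myc network had a positive difference and their median was 0.44. None passed: Mxd1 (0.59), Max (0.45) and Myc (1.05) had the smallest p, with limma adjusted p of 0.419, 0.455 and 0.478. Myc was well above background on 4 GFP-high arrays and 1 GFP-low array, and its difference was 0.14 with a common floor. Around Cdkn1a, a list of 8 genes held Trp53 and p53 targets, and 6 of the 8 had a positive difference, with a median of 0.42. Btg2, an antiproliferative p53 target, differed by 1.11 ± 0.34 (SE, limma adjusted p = 0.240) and Ccng1 by -0.87 ± 0.31 (SE, limma adjusted p = 0.287), so the 2 with the smallest p had opposite signs. Trp53 itself differed by 0.56 (limma adjusted p = 0.550).

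**Figure D4:**
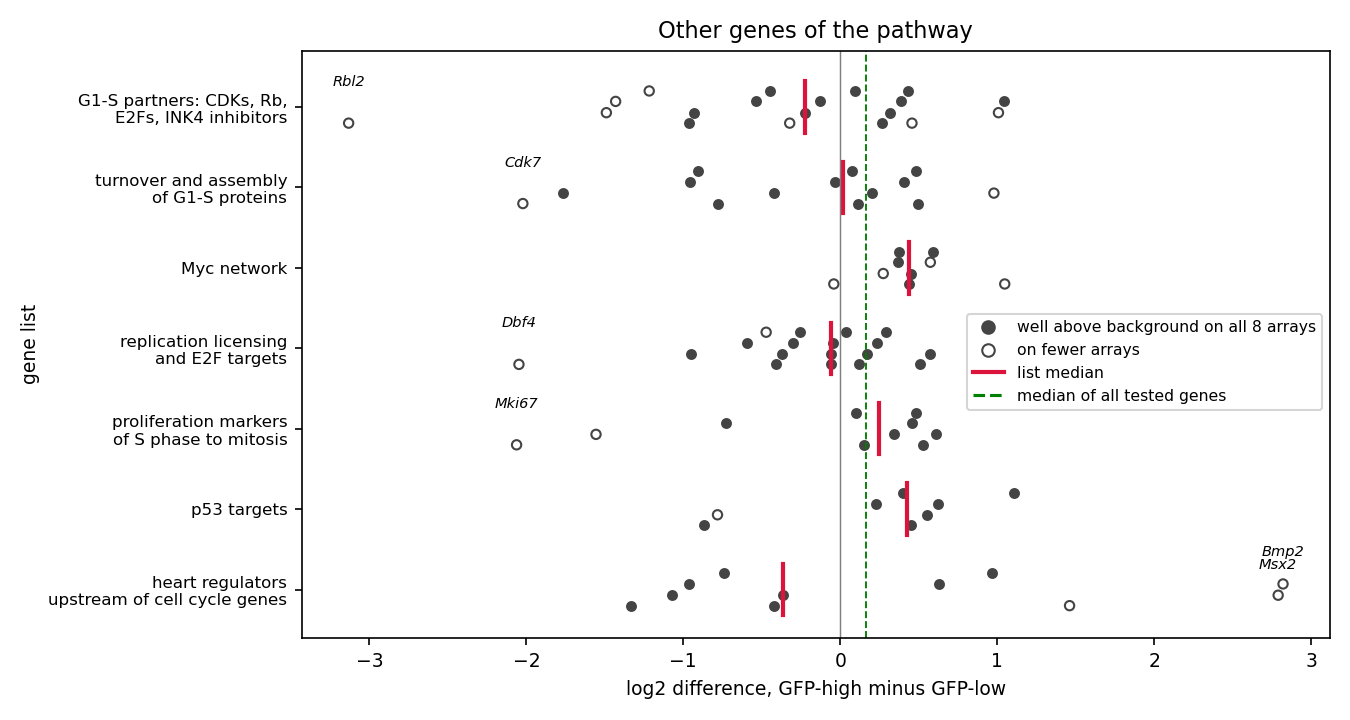
Difference between the groups (log2, GFP-high minus GFP-low) of the tested genes in 7 lists around the G1 to S step that lie within the range of the axis; filled points were well above background on all 8 arrays, open points on fewer, red bars are medians of all tested genes of a list and the green line is the median of all tested genes. None of the 90 genes passed the threshold, and Rbl2, Bmp2 and Msx2, which lie far from 0, are open points.

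The heart regulators upstream of these genes had 5 positive and 6 negative differences, and none passed the test. Tbx2 read 2.84, 2.74, 2.48 and 2.77 in GFP-high, against 2.25, 2.17, 1.71 and 2.18 in GFP-low, with every GFP-high array higher and a difference of 0.63 ± 0.23 (SE, limma adjusted p = 0.294). Tbx3 differed by 1.46 ± 0.93 (SE, limma adjusted p = 0.487), with 3 GFP-high and 2 GFP-low arrays well above background, and Tbx20, known in the mouse heart as a repressor of Tbx2, by -0.97 ± 0.36 (SE, limma adjusted p = 0.294). The GFP-high arrays, all with more Tbx2 signal than the GFP-low arrays, were not separated from them on either Mycn probe. The smallest p of the list belonged to Hand1 (-1.33), Gata4 (0.97) and Msx2 (2.79), with limma adjusted p of 0.145, 0.218 and 0.251.

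The genes whose levels ran most like those of Ccne2 over the 8 arrays were Naa15, Slc35b3, Fam98a and Ctbp2, with Pearson r of 0.975, 0.973, 0.971 and 0.969, and a transcript that the files name TC1710650, with 0.962. All 5 were lower in GFP-high on average, by 0.78 to 3.20 on the log2 scale, and the 2 groups make most of such a correlation. The GFP-high means of Naa15 (-4.20), Slc35b3 (-3.52) and TC1710650 (-3.99) lay below the lowest signal well above background of every array. Their differences and correlations rest on dim signal, like that of Ccne2. Those most like Mycn were Tnks2, Ece1, Ebf4, Klf10 and Paqr9, with Pearson r of 0.948, 0.938, 0.933, 0.926 and 0.924. These are the highest of 12874 correlations over 8 arrays that share the same hybridisations, and they are given as a description.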

How the data were processed

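The authors' deposited files hold spot intensity on a linear scale from 1-colour Agilent arrays, read with Agilent Feature Extraction 10.5.1.1 per the submitters' processing notes. Background subtraction and surrogates for the lowest values (34.8% to 49.4% of non-control spots) are those of that software, per the file headers. Per the labels' protocols, 5 ng of RNA was amplified before labelling, which adds spread to dim genes. The deposited value table held the same intensity values. The members and gene lists were chosen with earlier results of these data known.

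Each array had 43379 non-control spots. Spots with outlier flags were left out, and spots of a probe were averaged. The brightest probe stood for a gene. Probe names were updated with RefSeq's table for GRCm38.p6 (33070 of 41174 probes); coordinates stayed in mm9. Genes well above background on at least 4 of 8 arrays were fitted with limma 3.58.1 (lmFit and eBayes, R 4.3.3), with the group as the only term. On simulated arrays of the 12874 genes, this fit recovered 5.15%, 46.4% and 83.5% of changes of 1, 2 and 4 on the log2 scale, with 5.51% of calls false. Named genes were the 10 members, the 3 smallest p of each pathway list, Tbx2, Tbx3 and Tbx20, and the 5 genes most correlated with Ccne2 and with Mycn. A gene that this rule names is not reported here. Bmp2, Kcne1, Rspo3, Hcn4, Isl1, Lyz2, Shox2, Ptprc and Csf1r were named after their values were seen. Alternatives covered background correction, scaling, filters, probe choice, slide, replicate number, single arrays, the variance model and probe GC content.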

Additional observations from a re-analysis of the deposited data

Results flagged for a closer look

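Of the 34 groups of 4 arrays examined, 2 for each of the 17 probes, 1 held an array far from the other 3. On the Cdkn1b probe A_52_P673863, GFP-low replicate 2 read -4.99 on the log2 scale, and its gap to the nearest array was 0.907 of the group's range, past Dixon's critical value for 4 samples. The other 3 GFP-low arrays read -0.74, -0.74 and -1.14. This array was not well above background on the probe. Chance alone puts about 1 in 20 groups past this limit.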

How the results depend on the processing

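Members higher in GFP-high numbered 0 under every alternative run. The count lower in GFP-high, which is Ccne2 alone, was 0 with no filter on dim probes, with the filter of all 8 arrays (which leaves Ccne2 out), within slide 1, within slide 2 and with the replicate block, and 0 to 1 when 1 array was left out, being 1 only without GFP-high replicate 2. Ccne2 was picked for its low GFP-high signal, so this count is no test of it and nothing is read from it. Over all genes, 9 were higher in the fit as reported, against 14 with normexp, 4 with quantile normalisation, 32 with a common floor, 2 with no filter, 3 with each probe as its own row, 3 with the slide as a block, 14 with the trended and robust variance model and 3 with GC bin medians removed, an alternative chosen after seeing the data. Also 9 were lower, against 5 with quantile normalisation, 3 with normexp and quantile normalisation, 1 with no filter, 1 with the filter of all 8 arrays, 4 with each probe as its own row, 5 with the trended and robust model and 2 with GC bin medians removed. Within slide 1 and within slide 2 both counts were 0 (limma unadjusted p under 0.05 in 1570 and 790 genes), as they were with the replicate block (2381 genes). Leaving out 1 array gave 0 to 5 higher and 0 to 5 lower. Same-numbered arrays of the 2 groups correlated in their deviations at 0.114, 0.153, 0.303 and 0.065, each best with its own number, which is a hint of pairing from the data and not from the design. The sign of Ccnd2 turned under normexp (-0.081), quantile normalisation (-0.011) and both (-0.061). Cdkn1b turned within slide 2 (0.10) and without GFP-high replicate 1 (0.37), and ran from -0.82 to 0.37 when 1 array was left out. Mycn turned under normexp (-0.023), under normexp and quantile normalisation (-0.019), over the mean of its probes (-0.15) and within slide 1 (-0.017). Ccnd1, Ccnd3, Ccne1, Ccne2, Cdk4, Cdkn1a and Cdkn1c kept their sign under every alternative that gave a value. The median difference of all genes was 0.16, and 0.10 with normexp, 0.09 with quantile normalisation, 0.05 with both and 0.12 with the common floor. The causes of these shifts were not tested. Dim signal limits Ccne2, Rbl2 and Dbf4 most, and in the simulated arrays only 5.15% of changes of 1 on the log2 scale were recovered.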
